A study of Mus musculus with 12 samples.

Results

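Marker genes of neutrophils, mast cells and eosinophils were followed in mouse visceral fat. The 10 genes were chosen by symbol from the 53379 Ensembl genes of the count tables: 3 neutrophil genes (Csf3r, S100a8 and S100a9), 6 mast cell genes (Cpa3, Cma1, Mcpt4, Kit, Ms4a2 and Fcer1a) and 1 eosinophil gene (Siglecf). All 10 had enough reads to be tested. RNA came from perigonadal white adipose tissue (WAT) of C57BL/6 mice aged 9 weeks, killed at zeitgeber time 9. The 4 groups were mice with an adipose knockout of Cdk7, a kinase of the transcription machinery, after saline (ko saline) or CL (ko CL), and littermate controls with intact Cdk7 after saline (wt saline) or CL (wt CL), over 7 days of treatment. The drug's name appears only in the short form CL, read here as a β3-adrenergic agonist, and the driver of the deletion is not given in the sources used here. Each group had 3 libraries, and each library pooled RNA of 2 mice. The genotype tag contradicted the title in 6 of 12 samples, and groups were taken from the titles.

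Neutrophils, mast cells and eosinophils are granule-bearing cells of the innate immune system. Neutrophils mature in bone marrow under G-CSF and enter tissue along gradients of CXCR2 ligands. Mast cells complete their maturation in tissue, depend on stem cell factor acting on the receptor Kit, and store proteases that are released when their IgE receptor is crosslinked. Eosinophils reside in lean white fat and are recruited by eotaxins and interleukin 5. In bulk tissue, a change in the number of cells of a type and a change in RNA per cell cannot be told apart.

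Libraries held 21892817 to 27985019 gene counts. Levels are given as CPM, a gene's count scaled to the same library total in every library, with totals adjusted by TMM. Cdk7 lay between 29.3 and 35.4 CPM in the 6 wt libraries and between 11 and 23.6 CPM in the 6 ko libraries. The tissue's defining genes were present, and their level differed by group. The 9 adipocyte genes summed to 22500 to 25100 CPM in wt saline, 27600 to 30000 in wt CL, and in the knockout 15900 to 17000 under saline and 7870 to 11900 under CL. Under CL 9 of 9 were lower in ko than in wt (median log2 fold change -1.27), and their part in the marker differences was not tested. Lymphocyte genes summed to 419 to 2610 CPM in ko CL, with ko CL 2 the highest. Most of this sum was the gene Ighm, at 407 to 2580 CPM there and named after its values were seen. Duct epithelium genes summed to 17.3 to 72.8 CPM in the wt saline libraries, with wt saline 1 the highest, and to 144 to 209 CPM in ko saline. Under CL these genes summed to 3.51 to 7.72 CPM in wt and to 6.77 to 22.9 CPM in ko. Their part in the marker differences was not tested.

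The 5 mast cell genes other than Kit encode granule proteases and IgE receptor chains, and the 250 bases before their RefSeq start sites (GRCm38.p6) are shown because all 5 were called higher in ko than in wt under CL while Kit was lower. They are printed 5′ to 3′ on the gene's strand, the minus strand in each case. Capitals mark GATAA or its reverse complement TTATC, the core that GATA factors bind, a family on which mast cells depend. The windows are chr3:20242182-20242431 for Cpa3, chr14:55944676-55944925 for Cma1, chr14:56062311-56062560 for Mcpt4, chr1:173227230-173227479 for Fcer1a and chr19:11623720-11623969 for Ms4a2.
Cpa3: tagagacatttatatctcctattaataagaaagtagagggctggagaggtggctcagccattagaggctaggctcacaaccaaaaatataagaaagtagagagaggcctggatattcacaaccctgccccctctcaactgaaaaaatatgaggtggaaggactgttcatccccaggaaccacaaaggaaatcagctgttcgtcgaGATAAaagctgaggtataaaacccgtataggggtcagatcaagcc
Cma1: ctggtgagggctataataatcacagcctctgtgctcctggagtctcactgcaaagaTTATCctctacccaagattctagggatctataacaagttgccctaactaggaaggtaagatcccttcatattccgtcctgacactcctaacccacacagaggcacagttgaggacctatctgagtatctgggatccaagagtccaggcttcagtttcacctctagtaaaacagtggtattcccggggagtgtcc
Mcpt4: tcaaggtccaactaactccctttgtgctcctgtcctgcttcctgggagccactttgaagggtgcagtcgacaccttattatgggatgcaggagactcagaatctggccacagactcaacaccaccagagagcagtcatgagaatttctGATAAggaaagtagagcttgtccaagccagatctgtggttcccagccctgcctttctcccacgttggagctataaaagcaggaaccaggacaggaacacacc
Fcer1a: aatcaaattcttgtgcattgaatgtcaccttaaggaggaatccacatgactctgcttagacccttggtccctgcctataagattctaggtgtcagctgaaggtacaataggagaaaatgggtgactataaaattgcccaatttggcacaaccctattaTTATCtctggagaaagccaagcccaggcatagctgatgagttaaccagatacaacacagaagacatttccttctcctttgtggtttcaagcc
Ms4a2: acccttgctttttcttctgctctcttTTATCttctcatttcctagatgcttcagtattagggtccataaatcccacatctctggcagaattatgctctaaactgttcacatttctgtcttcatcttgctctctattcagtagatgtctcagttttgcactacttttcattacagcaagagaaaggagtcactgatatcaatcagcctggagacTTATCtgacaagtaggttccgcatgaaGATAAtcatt

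Each of these 5 windows held the motif. It began at position -45 from the start site in Cpa3, -194 in Cma1, -102 in Mcpt4 and -92 in Fcer1a, and Ms4a2 held it at -224, -37 and -10. The Kit window held none. Of the other members only S100a9 had it, at -29. Csf3r, S100a8 and Siglecf, also called higher in ko than in wt under CL, held none. The motif was thus present in 6 of 10 members, and on either strand in 22.6% of 32851 promoter windows of this length. The printed windows were chosen by the result of their genes, and a link of the motif to that result was not tested. The same search for CACATG, an E-box that MITF-type factors bind, found it in 3 of 10 members and in 12.3% of windows. A C/EBP-type motif, spelled TTGCNNAA, was present in 2 of 10 members and in 9.56% of windows. The PU.1-type motif TTCCTC was present in 5 of 10 members and in 23.3% of windows. A match describes letters and is no evidence of binding.

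More of the markers, and more of all genes, were called in the comparisons that involve knockout fat under CL than in the others. Genes were called at an adjusted p under 0.05 in the quasi-likelihood test of edgeR, with Benjamini-Hochberg correction over 16554 genes. Under CL in ko 8 of 10 markers were called, 7 upward and 1 downward, where 54.6% of all genes tested were called, 27.2% upward and 27.5% downward. Between genotypes under CL, 9 were called, 8 higher and 1 lower in ko, against 56.8% of all genes, 27.6% higher and 29.3% lower. Under CL in wt 3 were called, 1 upward and 2 downward, against 36.8% of all genes, 19.6% upward and 17.1% downward. Under saline 1 was called, higher in ko, against 14.4% of all genes, 7.99% higher and 6.45% lower. The median log2 fold change of the 10 was 1.16 for CL in ko, 1.55 between genotypes under CL, -0.16 for CL in wt and 0.07 between genotypes under saline, and that of all genes lay between -0.01 and 0.00. The CL response itself differed between genotypes for 8 markers, 7 upward and 1 downward in ko, against 45.4% of all genes, 21.8% upward and 23.6% downward. Libraries of the groups did not overlap for 9 of 10 markers under CL in ko (60.9% of all genes), 10 of 10 between genotypes under CL (63.6%), 3 under CL in wt (51.0%) and 4 between genotypes under saline (37.7%). These comparisons share libraries and are not independent of each other.

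**Figure D1:**
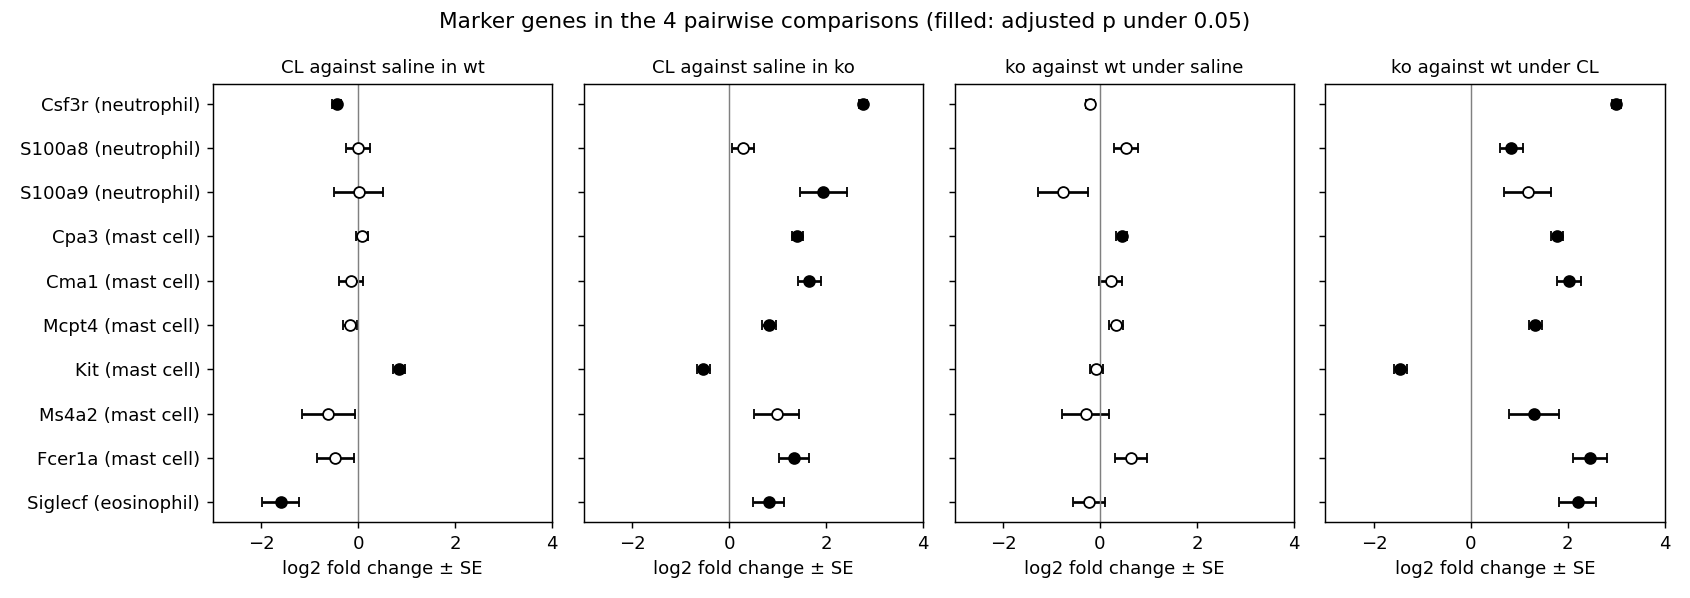
Log2 fold change with its SE (horizontal axis) of the 10 markers (rows) in 4 comparisons (panels), with filled points at adjusted p under 0.05. Under CL, 8 markers were higher in ko and Kit was lower, at -1.45.

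The 3 granule protease genes of mast cells rose under CL in knockout fat, and under CL in wild type none passed the test with TMM scaling. Cpa3 (ENSMUSG00000001865, GRCm38 chromosome 3, 20215620 to 20242181, minus strand) encodes carboxypeptidase A3, a major content of mast cell granules. It was at 7.87, 6.72 and 8.18 CPM in the wt saline libraries, 8.94, 8.64 and 6.57 in wt CL, 9.61, 9.96 and 11.5 in ko saline, and 29.7, 26.1 and 26.8 in ko CL. The ko CL libraries were far above the rest, ko saline lay just above both wt groups, and the wt groups overlapped. Cpa3 rose 2.66-fold under CL in ko (log2 fold change 1.41 ± 0.12 SE, adjusted p = 7.22e-07), and its value under CL in wt was 0.08 ± 0.13 (adjusted p = 0.664). Under CL it was 3.42-fold higher in ko than in wt (1.78 ± 0.13, adjusted p = 1.08e-07). Under saline it was the one marker called, at 0.45 ± 0.12 (adjusted p = 0.0319). That call was lost without wt saline 2, wt saline 3, ko saline 2 or ko saline 3 (0.37 to 0.50, adjusted p = 0.0602 to 0.115), and without wt saline 1 and ko CL 2 together (0.48, adjusted p = 0.0537), a setting chosen after seeing the data. The microRNA gene Mir7007 overlaps Cpa3 on the same strand.

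Cma1 (ENSMUSG00000022225, chromosome 14, 55941451 to 55944675, minus strand) encodes mast cell chymase. It was at 7.19, 5.80 and 8.47 CPM in the wt saline libraries, 9.45, 6.41 and 3.72 in wt CL, 7.22, 8.71 and 9.16 in ko saline, and 28.3, 25.6 and 25.3 in ko CL. Only ko CL stood apart, since the other groups overlapped each other. Cma1 rose 3.15-fold under CL in ko (1.66 ± 0.23, adjusted p = 5e-05) and was 4.06-fold higher in ko than in wt under CL (2.02 ± 0.24, adjusted p = 1.01e-05).

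Mcpt4 (ENSMUSG00000061068, chromosome 14, 56059629 to 56062313, minus strand) encodes a chymase-type protease of connective tissue mast cells. It was at 7.91, 6.84 and 8.68 CPM in the wt saline libraries, 7.71, 7.82 and 5.34 in wt CL, 10, 9.41 and 10.1 in ko saline, and 19.4, 17.2 and 15.7 in ko CL. The ko CL libraries were again highest, and ko saline lay above both wt groups. Mcpt4 rose 1.77-fold under CL in ko (0.82 ± 0.14, adjusted p = 0.000253) and was 2.51-fold higher in ko than in wt under CL (1.33 ± 0.14, adjusted p = 4.86e-06). Its value under CL in wt was -0.17 ± 0.15 (adjusted p = 0.394), and it was called lower when scaled by library size alone (-0.48, adjusted p = 0.0169). Of the 50-base windows of their transcripts, 5.38% of those of Cma1 and 5.48% of those of Mcpt4 also occur in other genes, so counts from those stretches are uncertain.

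The alpha and beta chains of the high-affinity IgE receptor were scarce. Fcer1a (ENSMUSG00000005339, chromosome 1, 173221284 to 173227214, minus strand), the alpha chain that binds IgE, was at 0.301, 0.400 and 0.712 CPM in the wt saline libraries, 0.503, 0.272 and 0.255 in wt CL, 0.798, 0.659 and 0.766 in ko saline, and 2.01, 1.70 and 1.94 in ko CL. Every ko CL library was above every other library. Fcer1a rose 2.53-fold under CL in ko (1.34 ± 0.31, adjusted p = 0.00244) and was 5.46-fold higher in ko than in wt under CL (2.45 ± 0.35, adjusted p = 5.97e-05), from 5 to 58 counts per library.

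Ms4a2 (ENSMUSG00000024680, chromosome 19, 11615523 to 11623719, minus strand), the signal-amplifying beta chain, had 5 to 33 counts per library. It was at 1.02, 0.320 and 0.320 CPM in the wt saline libraries, 0.447, 0.380 and 0.255 in wt CL, 0.218, 0.549 and 0.574 in ko saline, and 0.866, 1.10 and 0.690 in ko CL. Library wt saline 1 reached the level of ko CL, while both other wt saline libraries did not. The value for CL in ko was 0.98 ± 0.47 (adjusted p = 0.0951), and was called without wt saline 1 (0.95, adjusted p = 0.0423). Between genotypes under CL it was called at 1.30 ± 0.52 (adjusted p = 0.0462). This call was lost without wt CL 1, wt CL 2, wt CL 3, ko saline 2, ko saline 3, ko CL 1, ko CL 2 or ko CL 3 (1.10 to 1.48, adjusted p = 0.0506 to 0.148), without wt saline 1 and ko CL 2 together (1.11, adjusted p = 0.0543) and in DESeq2 (1.32, adjusted p = 0.0646).

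**Figure D2:**
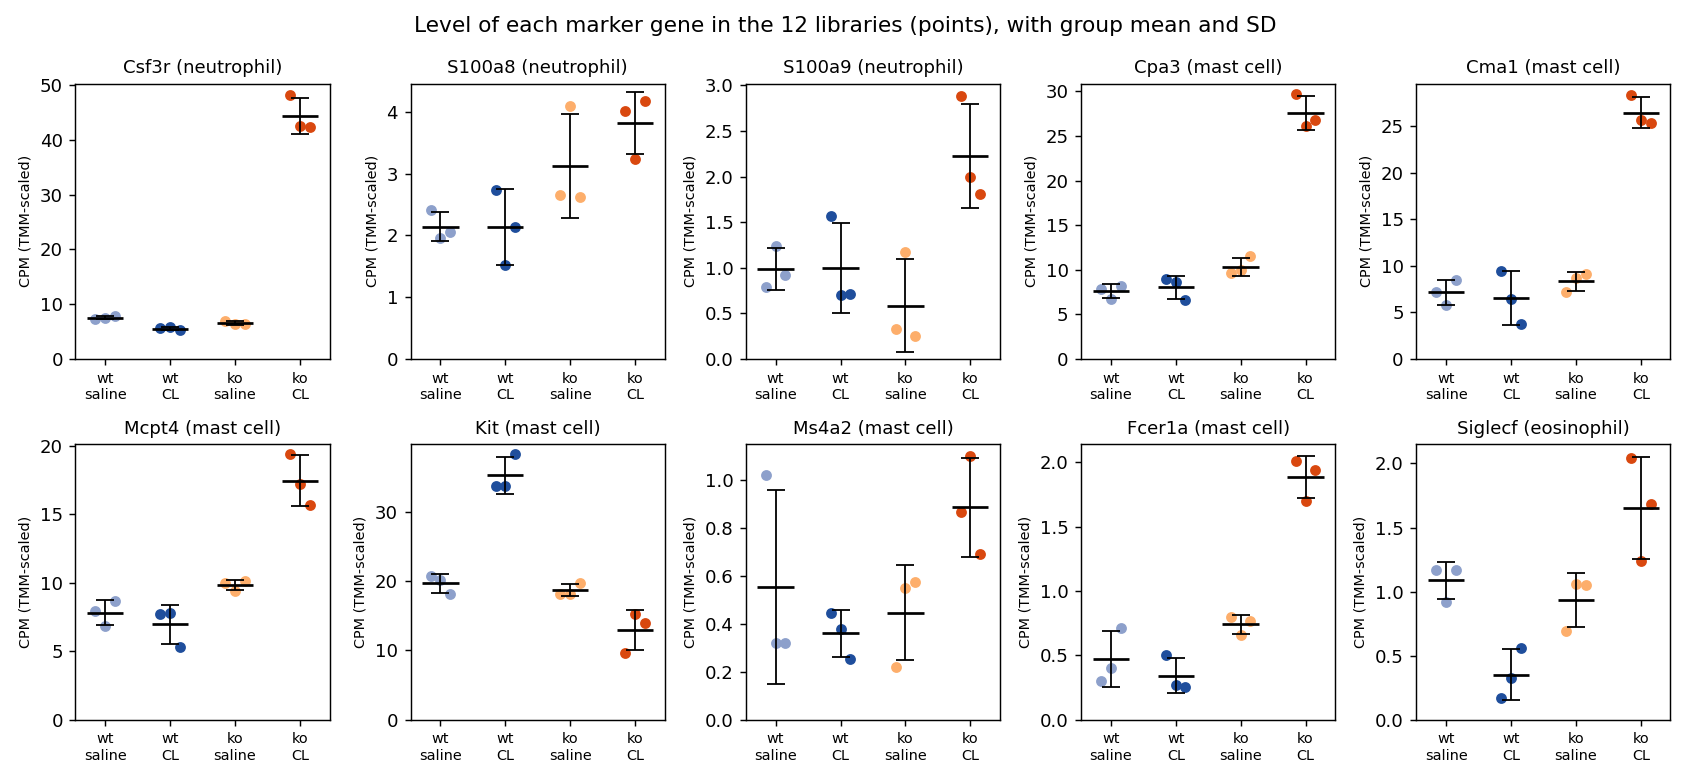
Level of each of the 10 markers (vertical axis, CPM) in the 3 libraries of each group (points), with the group mean (horizontal line) and SD (whiskers). Csf3r, Cpa3, Cma1, Mcpt4 and Fcer1a were highest in ko CL, whereas Kit was highest in wt CL (33.7 to 38.3) and lowest in ko CL (9.63 to 15.2).

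Under CL, Kit moved opposite to the protease and IgE receptor markers that were called in ko. Kit (ENSMUSG00000005672, chromosome 5, 75574916 to 75656722, plus strand) encodes the receptor of stem cell factor, and which cells its reads came from was not tested. It was at 20.7, 20.1 and 18.2 CPM in the wt saline libraries, 33.7, 33.8 and 38.3 in wt CL, 18.2, 18.2 and 19.7 in ko saline, and 9.63, 15.2 and 13.9 in ko CL. The saline groups overlapped, wt CL lay above them and ko CL below. Kit rose 1.79-fold under CL in wt (0.84 ± 0.13, adjusted p = 0.000289) and fell 1.45-fold under CL in ko (-0.53 ± 0.13, adjusted p = 0.00432). Under CL it was 2.74-fold lower in ko than in wt (-1.45 ± 0.13, adjusted p = 1.07e-06). Kitl, which encodes stem cell factor, was at 70.9 ± 5.5 CPM in the wt saline libraries, 88.3 ± 8.2 in wt CL, and in the knockout 70.8 ± 2.7 under saline and 64.2 ± 4.9 under CL (SD, n = 3). It rose under CL in wt (0.32 ± 0.08, adjusted p = 0.00957) and was lower in ko than in wt under CL (-0.46 ± 0.08, adjusted p = 0.000388).

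Corrected for exon length, the protease genes were the most abundant markers in ko CL. In RPKM (CPM per kilobase of exon), mean levels there were 24.2 ± 1.5 for Cma1, 18.1 ± 1.2 for Cpa3, 15.8 ± 1.7 for Mcpt4 and 12.3 ± 0.9 for Csf3r (SD, n = 3). S100a8 followed at 5.49 ± 0.73 and S100a9 at 4.27 ± 1.1 RPKM, whose libraries cannot be ordered beyond these SDs. Fcer1a was at 1.89 ± 0.16, Kit at 1.45 ± 0.33, Siglecf at 0.593 ± 0.15 and Ms4a2 at 0.315 ± 0.074 RPKM. In wt CL, Kit was at 3.96 ± 0.29 RPKM, against Cma1, Mcpt4 and Cpa3 at 5.99 ± 2.6, 6.28 ± 1.3 and 5.31 ± 0.85.

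Of 24 further mast cell genes, 17 could be tested. Under CL in ko 9 rose and 4 fell (median log2 fold change 0.67), where 27.2% of all genes tested rose and 27.5% fell. Under CL in wt 0 rose and 4 fell (-0.30), against 19.6% and 17.1% of all genes. Between genotypes under CL 12 were higher and 3 lower in ko (0.88), against 27.6% and 29.3%. The tryptase gene Tpsab1, named after its values were seen, had 27, 12, 37 and 70 counts over the libraries of wt saline, wt CL, ko saline and ko CL. It passed the filter on low counts through its ko CL counts, so the counts of genes higher in ko CL are no measure of the list. Scaled by library size alone, 9 fell under CL in wt and 1 was lower in ko under CL. The smallest adjusted p under CL in ko belonged to Fcer1g, the shared gamma chain of Fc receptors (2.49 ± 0.13, adjusted p = 1.09e-08), Hpgds, prostaglandin D2 synthase (3.35 ± 0.21, adjusted p = 4.68e-08), Mitf, a transcription factor (2.16 ± 0.15, adjusted p = 1.29e-07), and Ndst2, an enzyme of heparin synthesis (0.67 ± 0.06, adjusted p = 1.77e-06). Fcer1g, Hpgds and Mitf are also expressed by macrophages. Macrophage genes, 17 listed and all tested, summed to 1860 to 1960 CPM in the wt saline libraries, 1010 to 1220 in wt CL, and in the knockout 1810 to 1890 under saline and 9750 to 13500 under CL, and their part in these values was not tested. Chosen after their values were seen, the tryptase gene Tpsb2 rose under CL in ko (1.25 ± 0.26, adjusted p = 0.0014), as did the mast cell receptor gene Mrgprb2 (1.38 ± 0.33, adjusted p = 0.003). Other mast cell genes also fell under CL in ko, but none of them rose under CL in wt as Kit did. Chosen in the same way, these were Gata2, encoding a GATA factor of mast cells (-0.59 ± 0.13, adjusted p = 0.00149), Hdc, encoding the enzyme that makes histamine (-0.97 ± 0.24, adjusted p = 0.00457), Alox5 (-1.31 ± 0.14, adjusted p = 5.92e-06) and Rab27b (-0.71 ± 0.19, adjusted p = 0.00585). Alox5 and Rab27b fell under CL in wt too (-0.90 ± 0.14, adjusted p = 0.000311, and -1.06 ± 0.19, adjusted p = 0.000855). Gata2 and Hdc were not called there (0.01 ± 0.13, adjusted p = 0.939, and -0.38 ± 0.26, adjusted p = 0.278). Mean Hdc was 4.73, 3.63, 9.71 and 4.93 CPM in wt saline, wt CL, ko saline and ko CL. Under saline Hdc was the one called, higher in ko (1.04 ± 0.24, adjusted p = 0.0155), and 0 of the 17 were called higher without wt saline 2, wt saline 3 or ko saline 2. Mcpt9 and Adora3 had 0 counts in all libraries. Of 5 basophil genes 4 were tested, and under CL in ko 3 rose and 1 fell, the last being Gata2, which both lists hold. The basophil gene Prss34 had 21, 22, 25 and 117 counts over the libraries of wt saline, wt CL, ko saline and ko CL. It passed the filter on low counts through its ko CL counts, so the 3 is no measure of the list.

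**Figure D3:**
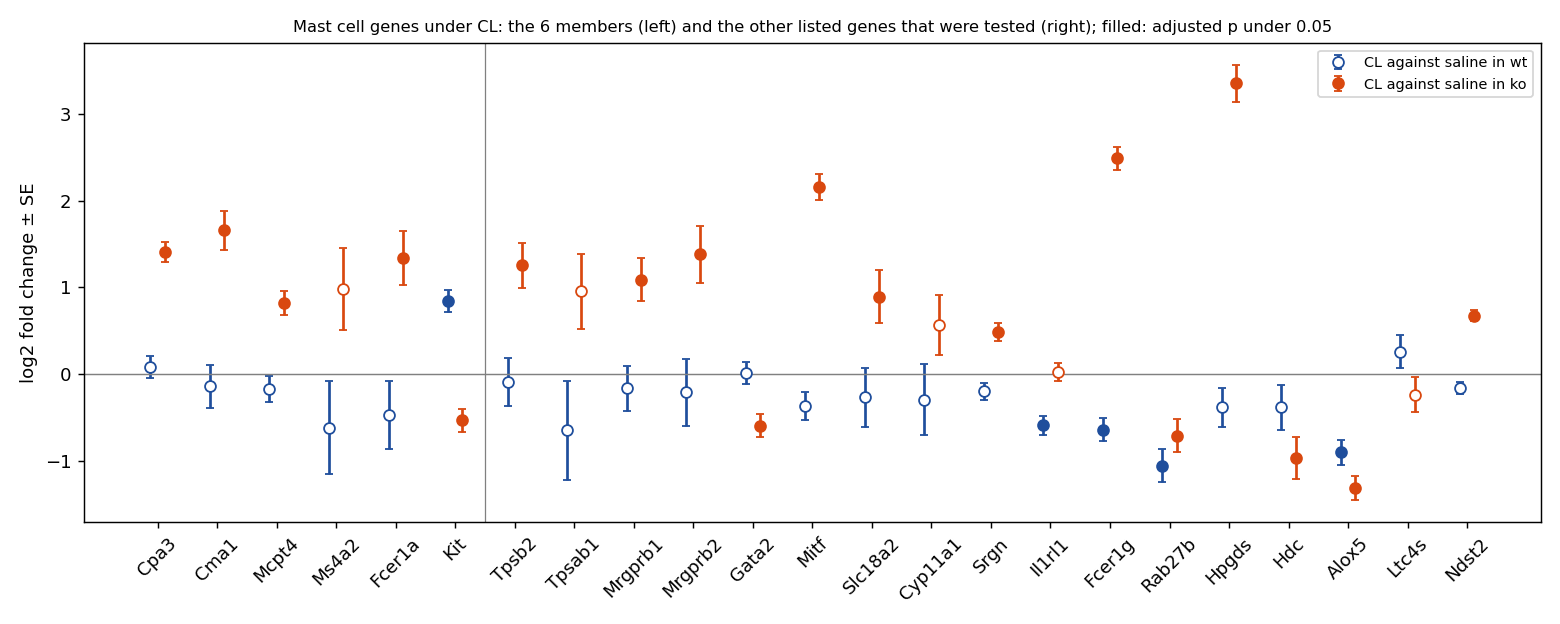
Log2 fold change under CL with its SE (vertical axis) of the 6 mast cell markers (left) and the other 17 mast cell genes tested (right), in wt and in ko, with filled points at adjusted p under 0.05. In ko 9 of the 17 rose, which is no measure of the list, and 4 fell. In wt 4 fell.

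Among the neutrophil markers Csf3r changed most and S100a8 least under CL in ko. Csf3r (ENSMUSG00000028859, chromosome 4, 126024550 to 126044440, plus strand) encodes the G-CSF receptor, found on neutrophils and also on monocytes and macrophages. It was at 7.27, 7.57 and 7.86 CPM in the wt saline libraries, 5.65, 5.76 and 5.24 in wt CL, 7.00, 6.41 and 6.32 in ko saline, and 48.1, 42.6 and 42.3 in ko CL. No 2 of the groups overlapped, and ko CL was far above the others. Csf3r fell 1.36-fold under CL in wt (-0.45 ± 0.09, adjusted p = 0.00217), rose 6.75-fold in ko (2.75 ± 0.08, adjusted p = 1.79e-09) and was 8.0-fold higher in ko than in wt under CL (3.0 ± 0.09, adjusted p = 6.44e-10). Of the 50-base windows of its transcripts 10.5% also occur in other genes, 190 in number.

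S100a8 (ENSMUSG00000056054, chromosome 3, 90668978 to 90670035, plus strand) and S100a9 (ENSMUSG00000056071, chromosome 3, 90692632 to 90695721, minus strand) encode both chains of calprotectin, the most abundant protein pair of the neutrophil cytosol. S100a8 was at 2.41, 1.96 and 2.06 CPM in the wt saline libraries, 2.74, 1.52 and 2.14 in wt CL, 2.65, 4.10 and 2.62 in ko saline, and 4.02, 3.24 and 4.18 in ko CL. Its ko groups overlapped and CL in ko gave 0.29 ± 0.23 (adjusted p = 0.313), while between genotypes under CL it was 1.79-fold higher in ko (0.84 ± 0.24, adjusted p = 0.0104), a call lost without wt CL 2 (0.64, adjusted p = 0.0507). S100a9 was at 0.791, 1.24 and 0.925 CPM in the wt saline libraries, 1.57, 0.706 and 0.713 in wt CL, 0.326, 1.17 and 0.255 in ko saline, and 2.88, 2.0 and 1.81 in ko CL. Every ko CL library was above every other library, and ko saline 2 stood apart from the other ko saline libraries. S100a9 rose 3.85-fold under CL in ko (1.94 ± 0.49, adjusted p = 0.00444), and without ko saline 2 the log2 fold change was 2.90. Its value between genotypes under CL was 1.17 ± 0.48 (adjusted p = 0.0521), and was called without wt CL 1, ko saline 2 or ko saline 3 (1.16 to 1.65, adjusted p = 0.0135 to 0.0416) and in each of the 7 other settings but the replicate block (1.17 to 1.56, adjusted p = 0.0119 to 0.0499). Under saline S100a9 was at -0.76 ± 0.51 (adjusted p = 0.35), and was called lower in ko without ko saline 2 (-1.74, adjusted p = 0.0419). The difference of its CL responses, 1.93 ± 0.70 (adjusted p = 0.0376), was lost without wt saline 2, wt saline 3, wt CL 2, wt CL 3, ko saline 1, ko saline 3 or ko CL 1 (1.55 to 1.98, adjusted p = 0.0583 to 0.093), and was 2.90 without ko saline 2.

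Of 27 further neutrophil genes, 17 could be tested. Under CL in ko 11 rose and 2 fell, against 27.2% and 27.5% of all genes tested. Under CL in wt 1 rose and 8 fell, against 19.6% and 17.1%. Between genotypes under CL 13 were higher and 0 lower in ko, against 27.6% and 29.3%. Mpo, Ltf, Ngp, Camp and Il1r2 are among the 11 and passed the filter on low counts through their ko CL counts. The 11 and the 13 are therefore no measure of the list. With at least 1 CPM in 3 libraries required, 7 rose under CL in ko and 0 under CL in wt, and with only the groups compared 0 rose under CL in wt. The 2 that fell under CL in ko became 1 without ko saline 2, ko saline 3 or ko CL 1 and in DESeq2, and without ko CL 2 1 gene was lower in ko than in wt under CL. Among the genes with the smallest adjusted p under CL in ko were subunit genes of the phagocyte oxidase, which macrophages also express. These included Ncf1 (1.94 ± 0.09, adjusted p = 5.27e-09), Ncf4 (2.75 ± 0.13, adjusted p = 5.27e-09) and Cybb (2.90 ± 0.14, adjusted p = 6.65e-09). These 3 fell under CL in wt, by 0.62 to 0.66 on the log2 scale.

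Other genes of the neutrophil list did not share 1 pattern, and those named next were chosen after their values were seen. Ly6g, the surface antigen of mouse neutrophils, had 2, 1, 0 and 3 counts over the libraries of wt saline, wt CL, ko saline and ko CL, and the chemokine receptor gene Cxcr2 had 21, 14, 12 and 15. Cxcr1, Fpr2 and Itgam had 0 counts in all libraries. Itgam is also a general gene of myeloid cells, and how reads of these 3 genes were assigned was not tested. Of the granule protein genes, 5 had few counts and most of them in ko CL. Ltf (lactoferrin) had 4, 4, 5 and 115 counts over the libraries of the 4 groups in that order, Ngp 1, 7, 3 and 75, Camp 4, 19, 5 and 52, Mmp8 6, 8, 7 and 37, and Mpo (myeloperoxidase) 2, 3, 3 and 36. Others did not follow these. Elane, encoding neutrophil elastase, had 63, 40, 43 and 29 counts. Lcn2 (lipocalin 2), which adipocytes also express, was at 11.2 ± 6.9, 4.44 ± 2.3, 31.8 ± 7.1 and 15 ± 6.8 CPM (SD, n = 3) in the same order. Prtn3, encoding proteinase 3, fell under CL in both genotypes (wt -2.87 ± 0.34, adjusted p = 4.43e-05; ko -1.91 ± 0.32, adjusted p = 0.000278). Retnlg, a resistin-like gene of neutrophils, fell under CL in wt (-1.18 ± 0.35, adjusted p = 0.0178) and rose in ko (1.60 ± 0.31, adjusted p = 0.000754), to 4.55 ± 0.94 CPM. Il1r2, the decoy receptor of interleukin 1, had 19, 11, 28 and 85 counts over the libraries of wt saline, wt CL, ko saline and ko CL. It passed the filter on low counts through its ko CL counts. General leukocyte genes, 7 in all, rose under CL in ko for 7 of 7 (median log2 fold change 2.34). Their sum in ko was 337 to 351 CPM under saline and 1610 to 2520 under CL. Their part, and that of the macrophage genes, in the rise of Csf3r was not tested.

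**Figure D4:**
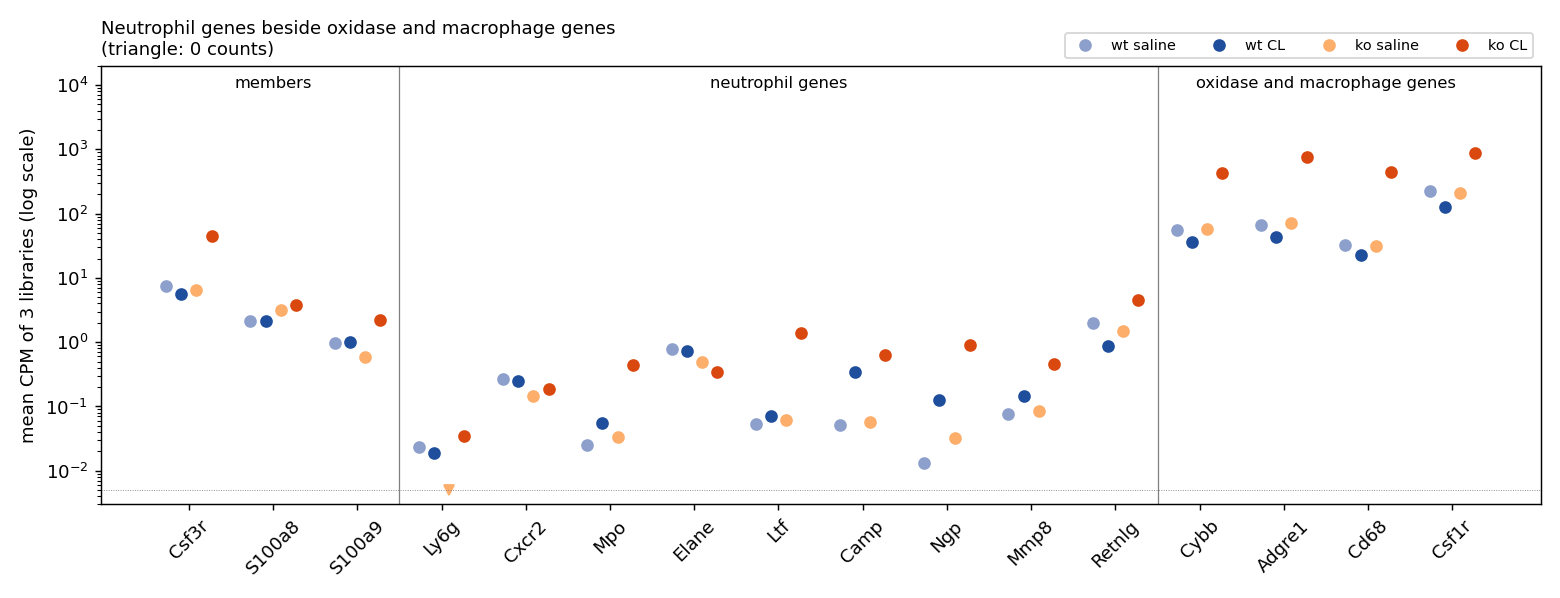
Mean level over 3 libraries (vertical axis, CPM on a log scale) of the neutrophil markers, other neutrophil genes, and oxidase and macrophage genes in the 4 groups (colours), with a triangle for 0 counts. Csf3r was at 44.4 CPM in ko CL, while Ly6g and Cxcr2 were below 0.3 CPM in every group.

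Siglecf (ENSMUSG00000039013, chromosome 7, 43351341 to 43359531, plus strand) encodes a sialic acid receptor of eosinophils that alveolar macrophages also carry. It was at 1.17, 0.921 and 1.17 CPM in the wt saline libraries, 0.168, 0.326 and 0.560 in wt CL, 0.689, 1.06 and 1.05 in ko saline, and 2.04, 1.24 and 1.68 in ko CL. The saline groups overlapped, wt CL was below and ko CL above them. Siglecf fell 3.04-fold under CL in wt (-1.60 ± 0.39, adjusted p = 0.00587) and was 4.6-fold higher in ko than in wt under CL (2.20 ± 0.38, adjusted p = 0.000241), from 3 to 59 counts per library. Its rise under CL in ko, 0.82 ± 0.32 (adjusted p = 0.0445), was lost without wt saline 1, wt saline 3, wt CL 2, ko saline 1, ko saline 2, ko saline 3, ko CL 1 or ko CL 3 (0.60 to 0.88, adjusted p = 0.0516 to 0.176), with library size alone (0.73, adjusted p = 0.0692), with no filter (0.79, adjusted p = 0.0783) and in DESeq2 (0.81, adjusted p = 0.0634).

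Of 15 further genes linked to eosinophils, 9 could be tested. They include the eotaxin genes Ccl11 and Ccl24, which the ligand list also holds. Under CL in wt 1 rose and 6 fell (median log2 fold change -0.77), against 19.6% and 17.1% of all genes tested. Under CL in ko 3 rose and 2 fell (0.38), against 27.2% and 27.5%, and the 2 were Ccl11 and Ccl24. Between genotypes under CL 5 were higher and 1 lower in ko (0.85), against 27.6% and 29.3%. Without ko saline 1 only 1 rose under CL in ko. Between genotypes under CL 0 were lower without wt CL 2, wt CL 3 or ko CL 2, with library size alone, with only the groups compared or without wt saline 1 and ko CL 2 together. With at least 1 CPM in 3 libraries required, 3 were higher in ko under CL and 0 rose under CL in wt. Ccr3, the eotaxin receptor, was at 1.98 ± 1.2 CPM in the wt saline libraries, 0.643 ± 0.1 in wt CL, and in the knockout 1.81 ± 0.86 under saline and 4.27 ± 0.45 under CL (SD, n = 3). It followed the order of Siglecf, with a fall under CL in wt (-1.62 ± 0.44, adjusted p = 0.0121) and a rise in ko (1.24 ± 0.37, adjusted p = 0.0128). The eotaxin genes Ccl11 and Ccl24 fell under CL in wt (-0.70 ± 0.08, adjusted p = 4.1e-05, and -1.33 ± 0.19, adjusted p = 0.000141) and in ko (-0.56 ± 0.08, adjusted p = 7.7e-05, and -1.54 ± 0.19, adjusted p = 1.78e-05). Clec12a, a lectin gene of myeloid cells in general, rose under CL in ko (3.71 ± 0.18, adjusted p = 8.17e-09). Prg2, encoding eosinophil major basic protein, rose under CL in wt (1.95 ± 0.42, adjusted p = 0.00303), opposite to Siglecf and Ccr3. The eosinophil peroxidase gene Epx, named after its values were seen, had 0, 3, 0 and 19 counts over the libraries of wt saline, wt CL, ko saline and ko CL, and Prg3 and Ear6 had 0 in all libraries. Ear1, named in the same way as Epx, had 31, 4, 25 and 68 counts in that order of groups. It passed the filter on low counts through its ko CL counts, so the counts of genes higher in ko CL are no measure of the list.

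Of 17 genes for ligands and growth factors of these cells, 10 could be tested. Under CL in wt 1 rose and 5 fell, against 19.6% and 17.1% of all genes tested. Under CL in ko 1 rose and 3 fell, against 27.2% and 27.5%. Between genotypes under CL 4 were higher and 2 lower in ko, against 27.6% and 29.3%. With library size alone 8 were higher and 0 lower in ko under CL, and 0 rose under CL in wt. Without wt CL 3 the 4 became 2, and without wt CL 2, wt CL 3 or ko CL 2 the 2 became 1, as with only the groups compared. The 5 that fell under CL in wt became 3 without wt saline 1, wt saline 3 or wt CL 3. Il33, an alarmin that acts on mast cells, fell under CL in wt (-0.96 ± 0.16, adjusted p = 0.000448) and was higher in ko than in wt under CL (1.17 ± 0.16, adjusted p = 2.95e-05). Cxcl2, a CXCR2 ligand, was the one that rose under CL in ko (1.79 ± 0.55, adjusted p = 0.0144), and 0 rose without ko saline 3 or ko CL 3. Csf3, encoding G-CSF, had 5 counts over all libraries and was named after its values were seen, and Il3 and Il9 had 0.

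Over the 12 libraries, the protease genes had closely similar profiles. As a description of libraries that fall into 4 groups, Pearson's r of log2 CPM was 0.969 for Cpa3 with Cma1, 0.967 for Cpa3 with Mcpt4 and -0.755 for Kit with Cpa3. It was 0.95 for Cpa3 with Csf3r and 0.495 for S100a8 with S100a9. The genes most like each marker were Sirpa (0.997), Anpep (0.996) and Prkcd (0.995) for Csf3r, Gdpd1 (0.992), Scamp5 (0.984) and Cpxm1 (0.983) for Cpa3, and Ethe1 (0.977), Zbtb42 (0.973) and Ankrd13b (0.968) for Cma1. For Kit they were Aco1 (0.996), Higd1a (0.992) and Stk16 (0.986), for Mcpt4 Fbln7 (0.983), Sned1 (0.971) and Slc25a30 (0.967), and for Fcer1a Eif5a2 (0.961), Ctsl (0.959) and Fbln7 (0.954). Siglecf was most like Antxr2 (0.951), Klf6 (0.947) and Gpr173 (0.941), S100a9 like Gpatch3 (0.947), Slc7a11 (0.939) and Kat5 (0.901), S100a8 like Camk2b (0.943), Fam20c (0.922) and Fgf7 (0.914), and Ms4a2 like Telo2 (0.93), Nynrin (0.889) and Xpnpep2 (0.887).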

How the data were processed

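Gene counts were deposited for 12 RNA-seq libraries. Per the submitters' processing notes, reads were aligned with STAR to GRCm38 and counted with HTSeq, with tool versions and annotation not given in the sources used here. Deposited counts are raw, and 12.5% to 17.2% of reads in the files were in rows that name no gene and were left out. The markers and gene lists were chosen with earlier results of these data known.

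Counts were tested with edgeR 4.0.16 (R 4.3.3): filterByExpr with a minimum count of 10 kept 16554 genes, libraries were scaled by TMM, and glmQLFit was run on all 12 libraries with 1 mean per group and 8 residual degrees of freedom. glmQLFTest gave p-values adjusted over all genes, called under 0.05. SEs are the fold change over the root of F. Symbols and exon lengths came from GENCODE M21, promoter sequences from RefSeq (10 of 10 symbols matched). In counts simulated for CL against saline in wt over 16554 genes, 53% of 100 genes changed 1.5-fold and 72% of 100 changed 2-fold were recovered, with 2.34% false calls. No other gene was changed there, while 36.8% of genes were called in the real counts, so these rates need not hold for them. The common biological coefficient of variation was 11.5%. Libraries are biological triplicates per the labels, and 3 against 3 cannot give an exact permutation p below 0.1.

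All 10 markers are named. Of each other list at most 4 called genes with the smallest adjusted p in a comparison were named, with any at 0 counts; of the genes correlated with a marker, the 3 highest at a mean of at least 1 CPM. A gene that the rule names is not reported here. Genes outside this rule are said to be chosen after their values were seen. Alternatives were RLE size factors, library size alone, no filter, at least 1 CPM in 3 libraries, a replicate block, only the groups compared, DESeq2 1.42.0 and leaving out each library. Leaving out wt saline 1 and ko CL 2 together was added after seeing the data.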

Additional observations from a re-analysis of the deposited data

Results flagged for a closer look

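The response to CL differed between genotypes for 8 of the 10 markers by the test of the difference itself (edgeR, ko minus wt, log2 scale). It was larger in ko for Csf3r, the G-CSF receptor gene (3.20, adjusted p = 2.33e-08), for Siglecf (2.42, adjusted p = 0.00167) and for S100a9 (1.93, adjusted p = 0.0376). Among the mast cell genes it was larger for Fcer1a (1.81, adjusted p = 0.00975), Cma1 (1.80, adjusted p = 0.000777), Cpa3 (1.33, adjusted p = 6.34e-05) and Mcpt4 (0.99, adjusted p = 0.00145). For Kit it ran the other way (-1.38, adjusted p = 7.14e-05). The difference was called for 45.4% of all genes tested.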

How the results depend on the processing

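Over 50 marker results and 7 settings other than leaving out a library, 310 of 333 values kept their direction and call, 6 lost and 9 gained a call, and 8, none of them called, changed sign. Of 29 called results, 24 kept the call in every setting, leaving out a library included, and 0 reversed. Scaling by library size alone moved the median of all genes to -0.33 for CL in wt, -0.10 for CL in ko, 0.15 between genotypes under saline, 0.39 under CL and 0.20 for the difference of the responses. With it 1329 genes rose and 8048 fell under CL in wt (3249 and 2836 with TMM), 3733 were higher and 506 lower in ko under saline (1323 and 1068), 8667 higher and 2237 lower in ko under CL (4561 and 4847), and 2267 had a lower response in ko (3903). It called 3 markers higher in ko under saline (1 with TMM), adding S100a8 (0.70, adjusted p = 0.0491) and Mcpt4 (0.49, adjusted p = 0.0272), and 0 were called without wt saline 1 and ko CL 2 together. Leaving out 1 library gave 0 to 1 markers higher and 0 to 1 lower under saline, and 509 to 1640 genes higher and 551 to 1356 lower.

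S100a9 under CL in wt (0.01) turned to -0.01 with RLE, -0.31 with library size, -0.03 without filter, -0.00 with the replicate block, -0.02 with only the groups compared, -0.01 in DESeq2, -0.14 without wt saline 1 and ko CL 2, and -0.47 to 0.20 without 1 library. Without wt saline 1 and ko CL 2, CL in wt gave 0.06 for S100a8 and 0.14 for Ms4a2, and Ms4a2 under saline gave 0.49. With library size Cpa3 under CL in wt was -0.23 and Kit under saline 0.08. Without 1 library, CL in wt gave -0.23 to 0.18 for S100a8, -0.00 to 0.21 for Cpa3, -0.51 to 0.14 for Cma1 and -0.90 to 0.14 for Ms4a2, and Ms4a2 under saline -0.58 to 0.49. The cause was not tested.

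Same-numbered libraries correlated at -0.355 to 0.176, over 0.1 in 2 of 18 pairs, so the numbers were not taken to pair them. With the replicate block Siglecf under CL in ko (0.82, adjusted p = 0.0577) and Ms4a2 between genotypes under CL (1.30, adjusted p = 0.0633) lost their call. Low counts limit Ms4a2, Fcer1a, Siglecf and S100a9.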
